A study of Rattus norvegicus with 4 samples.

Results

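The fatty acid oxidation enzymes on this array were carnitine palmitoyltransferase 1a (Cpt1a) and the long-chain acyl-CoA dehydrogenase (Acadl). They were taken by gene symbol, as every feature with a single symbol that is Acadl, Cpt1a or Ehhadh or begins with a family prefix such as Acad, Cpt1 or Cpt2. The rule found 5 of 1936 array features, of which 2 carried Cpt1a and 3 carried Acadl, and the annotation pairs each of the 5 with a different cDNA clone. Both enzymes act in mitochondria. Of the peroxisomal enzymes the rule could take, 0 features were found, so mitochondrial and peroxisomal members could not be set against each other.

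Liver breaks down long-chain fatty acids by β-oxidation, which removes carbon units from an activated acyl-CoA chain. Cpt1a sits in the outer mitochondrial membrane of the hepatocyte and joins the acyl group to carnitine. This is the controlled entry step, and malonyl-CoA, an intermediate of fatty acid synthesis, inhibits it. Acadl lies further along, in the mitochondrial matrix, and carries out the first dehydrogenation of the chain. In fasted rodents both genes are targets of the nuclear receptor PPARα, and their products feed the formation of ketone bodies.

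The treated animals were male Sprague-Dawley rats given 1 intraperitoneal injection of 75 mg/kg α-naphthylisothiocyanate (ANIT) in olive oil, a toxicant of the bile duct epithelium used to model cholestasis. Controls received olive oil alone, and livers of both conditions were taken after 24 h. The labels state no age. RNA from the right lateral lobe of 3 rats was combined in each condition, so there was 1 ANIT pool and 1 olive oil pool. Both were hybridised together on 4 spotted cDNA arrays, arrays 1 and 3 having ANIT in Cy5, and arrays 2 and 4 having the dyes swapped. The labels do not say outright that one pair of pools served every array; they were read that way.

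Each value below is a log ratio of the ANIT pool over the olive oil pool on 1 array, read as log2. No source states the direction; the channel order in the labels makes it likely, and the opposite one would turn every sign. With natural logarithms, which the values allow, each fold difference would be larger. The SD is over the 4 hybridisations, holds no spread between animals, and allows no p-value for the treatment. The arrays differed by dye orientation throughout: the median of all features was -0.68 and -0.64 on arrays 1 and 3, and 0.31 and 0.35 on arrays 2 and 4. Spot intensities were not analysed here, so neither the signal behind a ratio nor the presence of liver markers could be checked. In liver RNA, fewer cells of a type and less RNA per cell cannot be told apart.

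No feature of either enzyme met the 2-fold rule used here. A feature was called when its mean ratio was at least 1 in size and all 4 arrays had the same sign. By this rule 0 of the 5 features were called, where 3.82% of all features were (0.775% on the higher side of the ANIT pool and 3.05% on its lower side). At a limit of 1.5-fold the count was also 0, where 9.4% of all features were called. With 5 features, a count of 0 lies near both shares and does not set these enzymes apart from the array. A test of the hybridisations with limma, which sets pool against pool and says nothing of animals, called 4 of the 5 lower, where it called 61% of all features lower. Both Cpt1a features averaged about 0.5 below 0, while the Acadl features averaged between -0.30 and -0.061. Of the 5 features, 2 were below 0 on every array, 1 of each gene, as were 17.6% of all features.

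Cpt1a feature 1 had ratios of -0.79 and -0.67 on arrays 1 and 3, where ANIT was in Cy5. On arrays 2 and 4, where ANIT was in Cy3, its ratios were -0.35 and -0.20. All 4 arrays thus put the ANIT pool below the olive oil pool, more so with ANIT in Cy5. The mean was -0.50 ± 0.28 (SD, n = 4 arrays), a 1.42-fold lower ratio that stayed short of 2-fold. Arrays of the same orientation differed by 0.12 (Cy5) and 0.16 (Cy3), less than the distance of the mean from 0.

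Cpt1a feature 2 gave almost the same mean from quite different arrays. Its ratios were -1.75 and -1.82 on arrays 1 and 3, but 0.63 and 0.88 on arrays 2 and 4. The ANIT pool was therefore the lower one with ANIT in Cy5 and the higher one with ANIT in Cy3, so the sign followed the dye. The mean of -0.51 ± 1.47 (SD, n = 4 arrays) lay within the spread of the arrays, which includes the difference between dye orientations. Arrays of the same orientation differed by 0.066 (Cy5) and 0.25 (Cy3), as on Cpt1a feature 1 less than the distance of the mean from 0. The dye contrast (Cy5 over Cy3, the orientation means' difference divided by 2) was -1.27 for this feature and -0.23 for Cpt1a feature 1. With ANIT in Cy5 alone this feature would be called lower, as 1 of the 5 members, but so would 34.5% of all features.

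**Figure D1:**
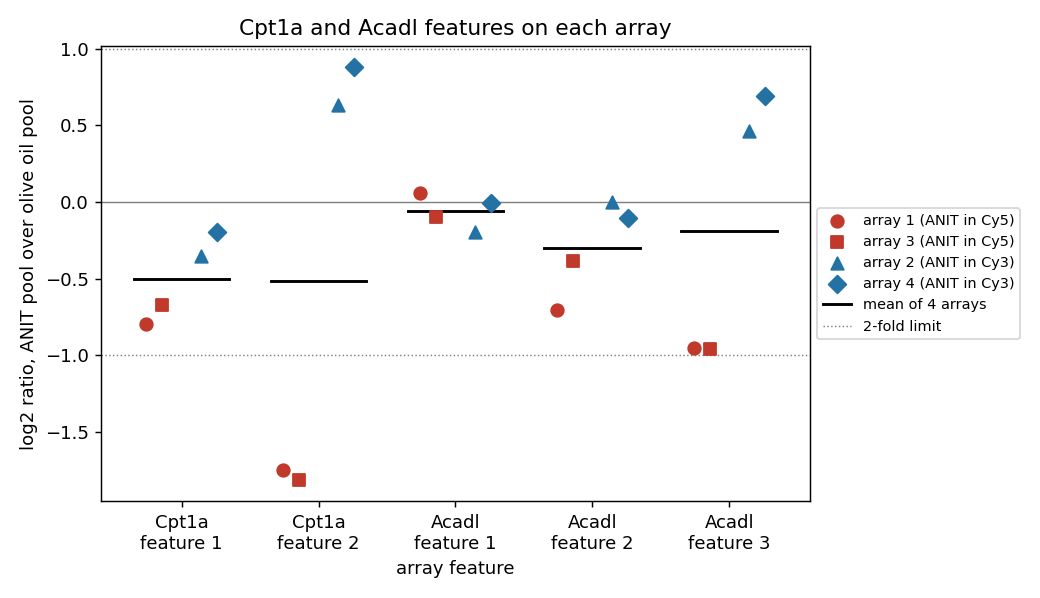
Log2 ratio (ANIT pool over olive oil pool) of each Cpt1a and Acadl feature on the 4 arrays, with red symbols for ANIT in Cy5, blue symbols for ANIT in Cy3, a black bar for the mean and dotted lines at 2-fold. Cpt1a feature 2 and Acadl feature 3 split by dye orientation, below 0 in red and above 0 in blue, while Cpt1a feature 1 lies below 0 on every array.

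Acadl feature 1 was the feature nearest to 0. Its ratios were 0.058 and -0.099 on arrays 1 and 3, and -0.20 and -0.0052 on arrays 2 and 4. The mean was -0.061 ± 0.11 (SD, n = 4 arrays) and the dye contrast 0.041. Before centring, this clone thus showed neither a treatment difference beyond its array spread nor a dye shift of that size. A ratio near 0 does not show that the transcript was unchanged, because the arrays were not centred and carry no unchanged standard.

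Acadl feature 2 had ratios of -0.70 and -0.38 on arrays 1 and 3 and of -0.00019 and -0.10 on arrays 2 and 4. All were below 0, array 2 by almost nothing. The mean of -0.30 ± 0.32 (SD, n = 4 arrays) did not exceed the spread of the arrays, and the dye contrast was -0.25. Arrays 1 and 3, which had the same orientation, differed by 0.32 on this feature, the widest such gap among the 5 features.

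Acadl feature 3 split by dye in the same way as Cpt1a feature 2. It stood at -0.95 and -0.96 on arrays 1 and 3 and at 0.46 and 0.69 on arrays 2 and 4. Its mean was -0.19 ± 0.89 (SD, n = 4 arrays), with a dye contrast of -0.76. Before centring, the 3 Acadl clones thus ran from no visible dye shift to a strong one. Their means of -0.061, -0.30 and -0.19 lay closer together than their arrays did. Averaged over its features, Acadl had a mean ratio of -0.18 ± 0.38 and Cpt1a of -0.51 ± 0.87 (SD, n = 4 arrays). These SDs include the difference between dye orientations, and the genes were not tested against each other.

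Set among all 1936 features, the Cpt1a features lay toward the lower end and the Acadl features in the middle. A lower mean was found in 11.1% of features for Cpt1a feature 1 and in 10.5% for Cpt1a feature 2. For Acadl features 1, 2 and 3 the shares were 70.8%, 43.5% and 57.3%. If the ratios ran the opposite way, the shares would be 88.9% and 89.4% for Cpt1a, toward the higher end, and 29.2%, 56.5% and 42.6% for Acadl. The median of the 5 member means was -0.30, against -0.25 over all features. Centring each array on its own median shifted the median over all features by 0.17. The Cpt1a means then became -0.34 and -0.35 and those of Acadl 0.10, -0.13 and -0.024.

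Centring also changed which arrays carried the Cpt1a difference. The centred ratios of Cpt1a feature 1 were -0.12 and -0.030 on arrays 1 and 3, and -0.67 and -0.54 on arrays 2 and 4. They remained below 0 on all 4 arrays, but the larger distance moved to arrays 2 and 4. Cpt1a feature 2 still split by orientation after centring, at -1.07 and -1.17 on arrays 1 and 3 but 0.32 and 0.54 on arrays 2 and 4. Acadl feature 1, near 0 before, then split the opposite way, at 0.73 and 0.54 on arrays 1 and 3 but -0.51 and -0.35 on arrays 2 and 4. Acadl feature 2 stood at -0.027 and 0.26 on arrays 1 and 3 and at -0.31 and -0.45 on arrays 2 and 4. Acadl feature 3 kept a smaller split, at -0.27 and -0.31 on arrays 1 and 3 and at 0.15 and 0.34 on arrays 2 and 4.

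A feature was termed dye-shifted when its dye contrast, uncentred, reached -0.5 or went below. Such features made up 43.2% of the array and 2 of the 5 members, Cpt1a feature 2 and Acadl feature 3. A lower dye contrast than that of Cpt1a feature 2 was found in 1.45% of all features. Near that dye contrast the mean ratio varied little from gene to gene. The 95 other features within 0.1 of the dye contrast of Cpt1a feature 2 all had means between -0.59 and -0.33. Their median was -0.46 and their interquartile range ran from -0.49 to -0.41. The mean of Cpt1a feature 2, -0.51, lay inside the full range and below the interquartile range. The 256 others within 0.1 of Cpt1a feature 1 had a median of -0.13, an interquartile range from -0.35 to 0.10, and extremes of -4.57 and 1.61. Cpt1a feature 1, at -0.50, also lay below the interquartile range of its comparison features. This comparison was chosen after the values were seen and is a description with no test.

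The 229 others within 0.1 of the dye contrast of Acadl feature 3 had a median mean of -0.30, with an interquartile range from -0.37 to -0.23. At -0.19, Acadl feature 3 lay above it. Acadl features 1 and 2 both lay inside the interquartile range of their own comparison features, which ran from -0.29 to 0.28 for Acadl feature 1 and from -0.36 to 0.089 for Acadl feature 2.

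**Figure D2:**
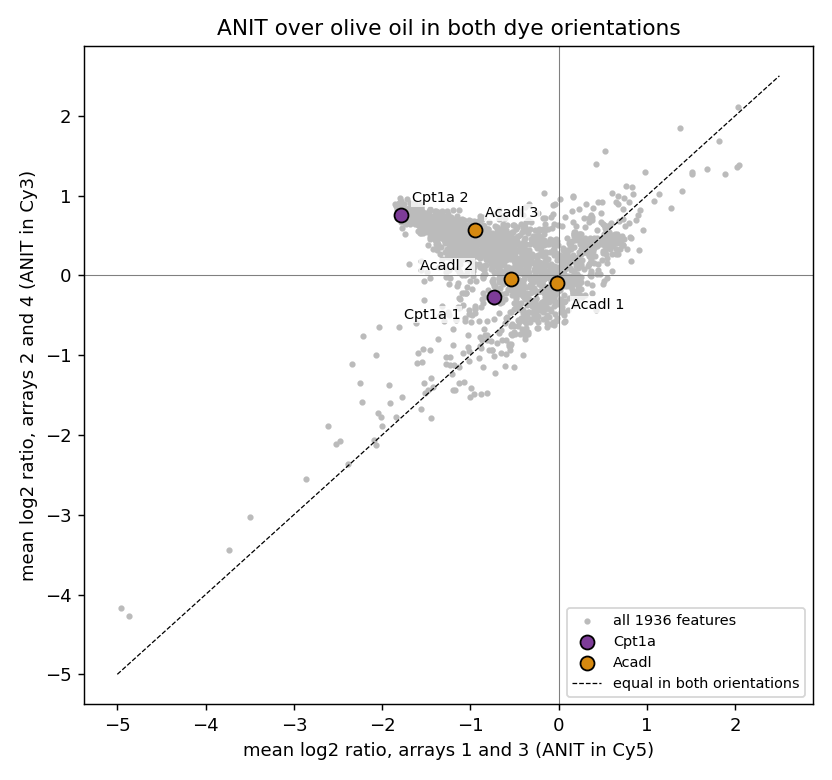
Mean log2 ratio with ANIT in Cy5 (horizontal axis, arrays 1 and 3) and with ANIT in Cy3 (vertical axis, arrays 2 and 4) for all 1936 features in grey, Cpt1a in purple and Acadl in orange, with a dashed line where both orientations give the same ratio. Cpt1a feature 2 lies in the upper left arm at -1.78 and 0.76, Acadl feature 3 in the same arm at -0.95 and 0.57, and the other members nearer the line.

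The clones of Cpt1a had close means but unlike dye contrasts. Their means were 0.0097 apart and their dye contrasts 1.04 apart. However, all 95 other features near the dye contrast of Cpt1a feature 2 had means between -0.59 and -0.33. The closeness of the Cpt1a means therefore does not let 1 clone back the other. Of the 261 genes with 2 features, 96.2% had a smaller gap in dye contrast, and the median gap was 0.24. For Acadl the means spanned 0.24 and the dye contrasts 0.80, against medians of 0.27 and 0.39 over the 49 genes with 3 features.

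The 3 named features with the nearest profile to Cpt1a feature 2, the member with the largest mean in size, were those of Aoc1, Glipr1 and Pygm. Their distances over the 4 arrays (Euclidean, log2 units) were 0.032, 0.086 and 0.11. Aoc1, a copper-containing amine oxidase, stood at -1.73, 0.63, -1.83 and 0.87 on arrays 1 to 4, the same split by orientation. All 3 were dye-shifted, with dye contrasts between -1.29 and -1.26.

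Other enzymes of mitochondrial β-oxidation were measured through 5 features of 3 genes, out of 15 genes listed. None was called. Echs1, the short-chain enoyl-CoA hydratase that follows the dehydrogenase step, had ratios of -0.061, -0.77, -0.42 and -0.55 on arrays 1 to 4. Its mean was -0.45 ± 0.30 (SD, n = 4 arrays). After centring, Echs1 stood at 0.61 and 0.23 on arrays 1 and 3 and at -1.08 and -0.90 on arrays 2 and 4. Hadhb, the thiolase subunit of the mitochondrial trifunctional protein, had a mean of 0.38 ± 0.19 on one feature, positive on all 4 arrays, and of -0.26 ± 0.80 on its other, dye-shifted feature. Hadha, the partner subunit, named after its values were seen, averaged 0.010 ± 0.62 and 0.011 ± 0.071. The median over the 5 features was 0.010, and the list had means on both sides of 0.

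Of 16 listed genes of peroxisomal fatty acid oxidation, 1 was measured. Abcd3, a transporter of the peroxisomal membrane, had ratios of -0.47, -0.95, -0.62 and -0.76 on arrays 1 to 4. It was below 0 on each, with a mean of -0.70 ± 0.21 (SD, n = 4 arrays), 1.62-fold lower and short of the rule. After centring, Abcd3 stood at 0.21 and 0.021 on arrays 1 and 3 and at -1.27 and -1.10 on arrays 2 and 4. In the wider list of peroxisomal genes, 1 of 11 features was called, on the lower side, where 3.05% of all features were called lower. This was Hao2, a hydroxyacid oxidase, at -1.95 ± 0.25 on one clone, against 0.18 ± 0.27 on the other. The median of the 11 features was -0.30, the same to 2 decimals as that of the Cpt1a and Acadl features.

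Among 5 features of other mitochondrial enzymes, those of Aldh2 and Sod2, 0 were called and 4 were below 0 on all arrays, where 17.6% of all features were. Aldh2, the mitochondrial aldehyde dehydrogenase, had means of -0.64 ± 0.14, -0.59 ± 0.23 and -0.55 ± 0.19 on its 3 features (SD, n = 4 arrays). Before centring, all 3 clones lay below 0 in both orientations, as Cpt1a feature 1 did and Cpt1a feature 2 did not. After centring, they stood between 0.034 and 0.41 on arrays 1 and 3. On arrays 2 and 4 they then stood between -1.13 and -0.99, while Cpt1a feature 1 stayed below 0 on all 4 arrays. Ketogenesis genes on the list were the symbol of 0 features. The ω-oxidation enzyme Cyp4a8 stood at -0.36 ± 1.16 and was dye-shifted.

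Some features of steps that supply or oppose β-oxidation passed the 2-fold rule. These lists were chosen with earlier results of these data known, so their counts are a description and no test. Fatty acid uptake and activation was measured through 3 features of 2 genes, out of 15 listed, with a median of -2.25 against -0.25 over all features. Of the 3 features, 2 were called lower, where 3.05% of all features were. Acsl1, which activates long-chain fatty acids to the acyl-CoA used by Cpt1a, had ratios of -2.74, -2.63, -2.98 and -2.47 on arrays 1 to 4 of one feature, and its other feature averaged -2.25 ± 0.42 (SD, n = 4 arrays). Both were called lower, and their ratios ran from -2.98 to -1.88. The ratios of Cpt1a, the next step, ran from -1.82 to 0.88 over both of its features. The remaining feature, of the fatty acid carrier Cd36, stood at 0.49 ± 0.55. Of 6 features of fatty acid synthesis genes (5 of 16 listed, median -1.81) 4 were called lower, where 3.05% of all features were, and 0 higher. Those called were of Scd (-3.26 ± 0.30), Fads2 (-2.28 ± 0.23 and -1.54 ± 0.62) and Fasn (-2.08 ± 0.13). Me1 (-0.86 ± 0.36) and Scd2 (-0.21 ± 0.15), named after their values were seen, were not called. These values compare differences between the pools, not levels of 1 gene with another.

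**Figure D3:**
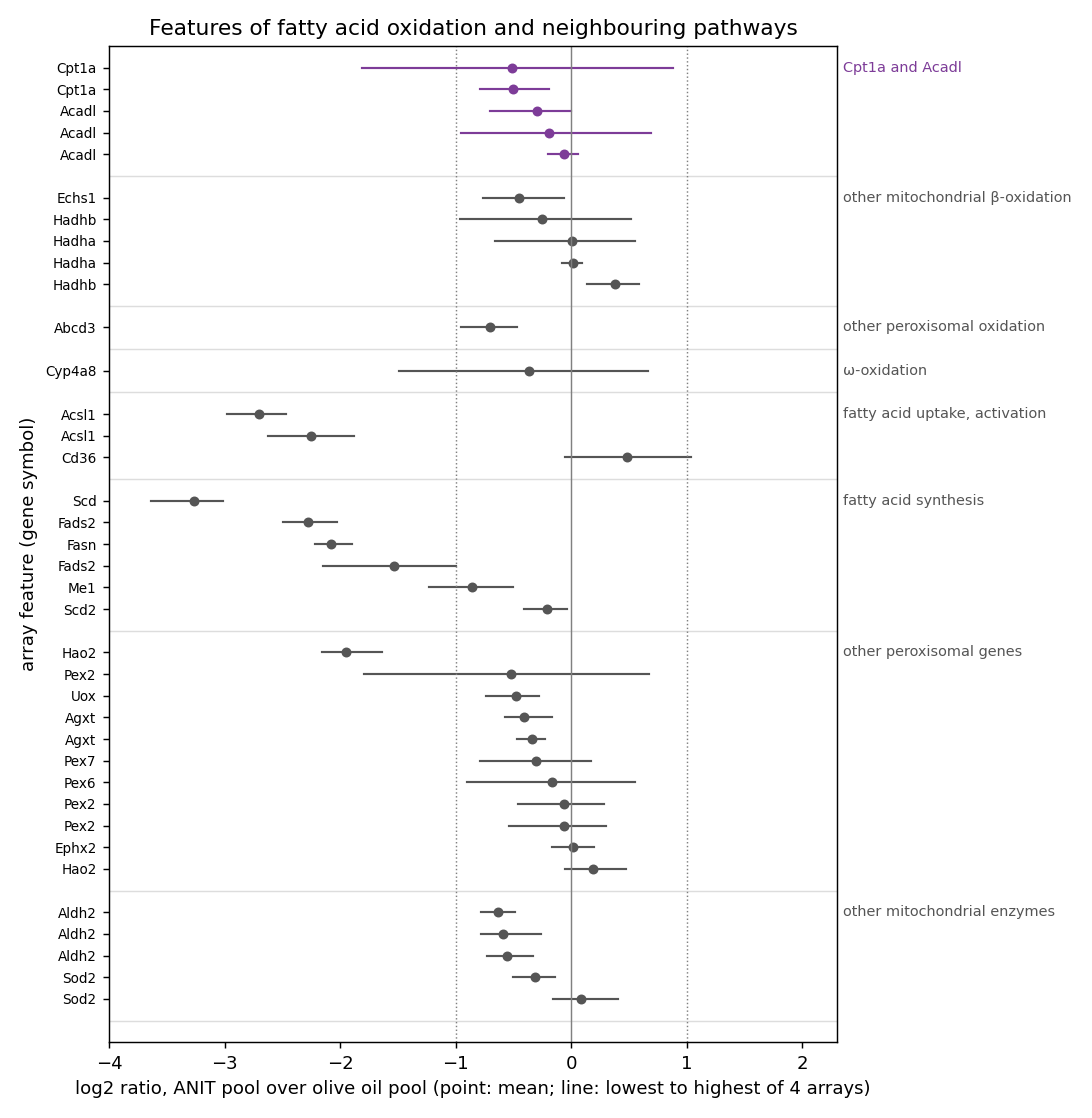
Mean log2 ratio (ANIT pool over olive oil pool, points) and the lowest to highest of the 4 arrays (lines) for each feature of Cpt1a and Acadl, in purple, and of listed genes of neighbouring pathways, in grey, with dotted lines at 2-fold. The Cpt1a and Acadl means lie between -0.51 and -0.061, while both Acsl1 features and 4 of 6 synthesis features lie beyond 2-fold on the lower side.

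Among 7 measured regulators, out of 17 listed, 0 of 10 features were called. Nr1h4, the bile acid receptor, averaged -0.85 ± 0.46, and Rxra, the partner of PPARα on DNA, averaged -0.69 ± 0.16 (SD, n = 4 arrays) on one feature and -0.34 ± 0.25 on its other. Ppara was the symbol of 0 features. The RefSeq promoter table (GRCr8) held Cpt1a, and neither the half-site AGGTCA nor the DR1 element bound by PPARα with Rxra, 1 half-site repeated after a single base, occurred on either strand from 250 bases before to 50 bases after the start. AGGTCA was held by 16.2% of all promoters of that length and DR1, which contains it, by 0.0538%. No match says only that these letters are not in this window.

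Markers of cell types were measured by few features, with 0 called. Hepatocyte markers (4 of 10 genes, 5 features) had a median of -0.071 and lay between -0.49 and 0.074. The largest by size were a dye-shifted feature of Serpina1, at -0.49 ± 1.49, and Ttr at -0.13 ± 0.27. The other Serpina1 feature stood at -0.071 ± 0.44. Cholangiocyte markers (2 of 9 genes) were Spp1 at -0.37 ± 1.15 and Ggt1 at -0.31 ± 1.11, both dye-shifted. Macrophage and neutrophil markers (2 of 12 genes, 3 features) lay between -0.37 and 0.11, both of these values from S100a9. The S100a9 feature at -0.37 was dye-shifted. Stellate and endothelial markers (4 of 13 genes, 5 features) lay between -0.45 and 0.13, with Col1a1 at -0.45 ± 1.09 and Kdr at -0.44 ± 0.48. This Col1a1 feature was dye-shifted, and the other Col1a1 feature stood at -0.44 ± 0.36. The part of cell makeup in the Cpt1a and Acadl ratios was not tested.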

How the data were processed

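The authors deposited 1 log ratio of the 2 channels per feature and array, taken to be log2. The log base, the direction, the scanner and the normalization are stated nowhere in these sources. Per the labels, poly(A) RNA of pooled livers was converted to cyanine-labelled cDNA and applied to spotted cDNA slides. Values were used as deposited, uncentred. The 4 arrays count as technical repeats of 1 pool per condition, and their number limits the precision.

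Of the features, 1432 had 1 symbol in the platform annotation, 19 several and 485 none, and Cpt1a and Acadl both matched a RefSeq gene table (GRCr8) by gene ID. Features of a gene were numbered from the highest dye contrast to the lowest. Members, lists and the dye contrast limit of -0.5 were chosen with earlier results of these data known. Named genes were every member, each list's called genes or otherwise its 2 largest features, and the 3 profiles nearest to the largest member.

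Alternatives were centring, a 1.5-fold limit, single dye orientations, each array left out, natural logarithms, gene means, removal of dye-shifted members and limma with a dye term. The steps were tested on simulated data. Fits used limma 3.58.1 in R 4.3.3, other steps pandas 2.3.3 and numpy 2.4.6 in Python 3.11.15, and plots matplotlib 3.10.9.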

Additional observations from a re-analysis of the deposited data

How the results depend on the processing

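The number of called Cpt1a and Acadl features was 0 in both directions with centred arrays, where 3.62% of all features were called. It was also 0 at 1.5-fold (9.4% of all features called), with ANIT in Cy3 alone (3.82%) and with natural logarithms (7.54%). Gene means gave 0 as well (4.18% of genes called), as did removal of dye-shifted features (6.1%) and leaving out each array (3.72% to 3.82%). With so few members, a count of 0 lies near each of these shares. With ANIT in Cy5 alone 1 member was lower, Cpt1a feature 2, where 34.5% of all features were lower. The median of the members, all mitochondrial, was -0.30. It was -0.73 with ANIT in Cy5 alone, -0.051 with ANIT in Cy3 alone, -0.13 with centred arrays and -0.38 to -0.22 with single arrays left out. Limma with the dye orientation as a term, a test between the pools alone, called 4 of the 5 members lower and 61% of all features lower at an adjusted p limit of 0.05. Acadl feature 1 was the exception (limma adjusted p = 0.40). Of 40 single feature values under the alternatives, 3 had the opposite sign: Cpt1a feature 2 and Acadl feature 3 with ANIT in Cy3 alone (0.76 and 0.57) and Acadl feature 1 with centred arrays (0.10). Each value is already a ratio of both pools on 1 array, so no further pairing was made. The calls by the 2-fold rule come from no test. No alternative could be run for peroxisomal members, which were 0 features.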

Other observations

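Features that the annotation assigns to the same clone accession give a view of how far 2 spots of 1 sequence can differ on these arrays. There were 21 such pairs with 1 symbol. Their means differed by a median of 0.19 and their dye contrasts by a median of 0.14. In 2 of the pairs the dye contrasts were at least 0.5 apart. For Pex2, a peroxisome assembly factor, the contrasts were -0.36 and -1.17, with means of -0.061 and -0.52. For Cyp2e1, a cytochrome P450, they were -0.51 and 0.028, with means of -0.46 and -1.05. Both genes were named after their values were seen. The gap in dye contrast between the Cpt1a clones, 1.04, was larger than the largest among these pairs, 0.80.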
